A study of Mus musculus with 10 samples.

Results

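The Hox genes of the 4 mouse clusters were examined in RNA sequencing of a melanoma cell line and its liver-passaged subline. The members are the protein-coding genes whose GENCODE M21 symbol is Hox followed by a cluster letter (a to d) and a paralog number, which gives 39 of the 55385 gene identifiers in the files. All 39 were found. WT31 is a melanoma line from Tyr∷NrasQ61K/°; INK4a−/− mice, so that an activated Nras under a tyrosinase promoter and the loss of Ink4a are shared by both groups. WT31_P5IV was obtained by 5 rounds of tail-vein injection of these cells and recovery from liver metastases, and it is 1 subline rather than several independent ones. Each group had 5 libraries, made from untreated cells in sub-confluent culture and not from metastases. The sample titles call the libraries biological replicates, but nothing states that they came from separate thaws or cultures, so p-values measure only the spread between these libraries.

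Hox genes encode homeodomain transcription factors. They sit in clusters in the order in which they are switched on along the head-to-tail axis of the embryo, with low paralog numbers expressed from more anterior levels and high numbers toward the tail. Many adult cells keep part of the Hox pattern of their place of origin, held in place by Polycomb repressors and by trithorax-type activators such as the MLL methyltransferases. HOX proteins bind DNA together with cofactors of the TALE class, the PBX and MEIS families. The members were compared between WT31 and WT31_P5IV to see which clusters and which positions in them were in use, and which of those differed after passaging.

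All members share the homeobox, the stretch of coding DNA for the DNA-binding homeodomain, but over whole transcripts the expressed ones differed. Of the 31-base words that the kallisto program matches by default, Hoxa10 shared 0% with other genes in the same direction, Hoxb8 0.0743%, Hoxb9 0.782%, Hoxa7 0.977%, Hoxa9 1.02% and Hoxa6 3.32%. Hoxa2 and Hoxa3 shared more, 13.7% and 8.24%, mainly with Gm28308, an annotated gene that spans both and had 0 to 5 counts in every library. The highest shares were those of Hoxd3 (61.1%) and Hoxd4 (49.1%), mainly with Gm28230, which had 0 counts in every library.

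Estimated counts per library ranged from 24255389 to 25750639, and the totals did not differ between the groups beyond the spread of the libraries (p = 0.230 in an exact two-sided permutation test of 5 against 5). At this depth 3 counts in a library corresponded to 0.114 to 0.129 CPM. CPM, counts relative to library size, are here scaled by the TMM method, and intervals and limits cover counting error only. The first principal component held 74.5% of the variance and separated the groups. On the second (6.18%), WT31 replicates 2 and 3 lay at −17.9 and −16.6 and the other WT31 libraries at 3.07 to 20.9, so counts of changed Hox genes are also given without those 2 libraries. All 10 melanocyte markers were detected, with a summed level of 18520 to 19800 CPM in WT31 and 23660 to 27360 CPM in WT31_P5IV. Of these markers 4 were called higher, 3 lower and 3 not called (median log2 fold change 0.02), so the sum does not describe the set. Markers of hepatocytes and endothelial cells, which could be carried over from liver, were near absent, and those of the other cell types were not. The sum of 7 hepatocyte markers was 0.227 to 0.554 CPM in WT31 and 0.402 to 1.18 CPM in WT31_P5IV, with at most 9 counts of Alb in a library and Fgb and Krt18 at 0 in all. The sum of 7 endothelial markers was 0.158 to 0.492 and 0.161 to 0.463 CPM, with Cdh5 at 0. The sum of 10 fibroblast and stellate cell markers was 7.46 to 10.2 and 5.60 to 6.68 CPM. Of 6 tested ones Col1a1, Col1a2 and Acta2 were called higher in WT31_P5IV, by log2 values of 1.00, 1.40 and 1.47, and Twist2, which made up much of the WT31 sum, was called lower, from 93 to 136 counts to 0 to 3. The sum of 7 macrophage and leukocyte markers was 4.84 to 6.72 and 4.34 to 6.24 CPM, nearly all of it from Cd68, called higher, and Lyz2, called lower, while Ptprc, which marks all leukocytes, had at most 2 counts. The fibroblast and leukocyte sums were as high as the levels of many Hoxa genes, and their part in the Hox values was not tested. In such bulk libraries, fewer cells with a transcript and less transcript per cell cannot be told apart.

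Detection, defined as over 3 counts in all 5 libraries of a group, was confined to the Hoxa and Hoxb clusters in these libraries. In WT31 10 of 39 genes were detected, among them Hoxa2 to Hoxa7, Hoxa10, Hoxb8 and Hoxb9. In WT31_P5IV the same 10 and Hoxa9 were detected, 11 in all. The Hoxa cluster on chromosome 6 supplied 9 of the 11 and the Hoxb cluster on chromosome 11 supplied 2. None of the 9 Hoxc genes on chromosome 15 and none of the 9 Hoxd genes on chromosome 2 was detected. Over all 10 libraries the Hoxc genes together had 19 counts, with at most 2 of 1 gene in a library, and the Hoxd genes together 5, with at most 1. These counts are under the limit of 3 counts, so low expression of Hoxc and Hoxd genes was not detectable at this depth rather than shown to be absent. Of the 39 genes, 11 had 0 counts in every library: Hoxb13, Hoxc5, Hoxc10 to Hoxc13, Hoxd1, Hoxd8 and Hoxd10 to Hoxd12.

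Hoxb9 had by far the highest level of any Hox gene. It belongs to the paralog group that is expressed from thoracic levels of the embryo. TPM, which accounts for transcript length and so allows levels of different genes to be compared, was 117 ± 0.777 in WT31 and 84.5 ± 4.61 in WT31_P5IV (SD, n = 5). Hoxb9 made up 88.8 to 90.0% of all Hox TPM in the WT31 libraries and 77.0 to 79.9% in the WT31_P5IV libraries. The ratio of its TPM to that of the next Hox gene was 33.9 to 40.1 in WT31 and 8.84 to 11.5 in WT31_P5IV. The summed TPM of all 39 genes was 131 ± 0.878 in WT31 and 108 ± 4.56 in WT31_P5IV, to which the Hoxa genes gave 10.7 ± 0.275 and 21.8 ± 0.348 TPM.

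Below Hoxb9 the order of the levels differed between the groups. In WT31 Hoxa7 came next at 2.99 ± 0.184 TPM, followed by Hoxb8 at 2.69 ± 0.606 and Hoxa5 at 2.00 ± 0.177. The ranges of Hoxa7 and Hoxb8 and of Hoxb8 and Hoxa5 overlapped across the libraries. Compared within each WT31 library, Hoxb8 was above Hoxa5 in all, and Hoxa7 was above Hoxb8 except in replicate 2. Hoxa4 followed at 1.51 ± 0.173, Hoxa10 at 1.06 ± 0.270, Hoxa6 at 0.945 ± 0.453 and Hoxa3 at 0.922 ± 0.133 TPM, each overlapping the next. Hoxa2 was lowest of the detected genes at 0.398 ± 0.0978 TPM. In WT31_P5IV Hoxa10 came second at 8.30 ± 0.482 TPM and Hoxa5 next at 4.03 ± 0.348, and neither overlapped its neighbors. Hoxa3 at 2.21 ± 0.338 and all genes below it, down to Hoxa4 at 0.732 ± 0.210, overlapped the next gene in the order.

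Of the 39 genes, 11 passed the filter on low counts and were tested within the fit over all 13620 genes that passed it. Called means an adjusted p under 0.05. Of the 11, 10 were called, 6 higher and 4 lower in WT31_P5IV. Hoxa2, Hoxa3, Hoxa5, Hoxa9 and Hoxa10 were among the higher ones, and Hoxa4, Hoxa7, Hoxb8 and Hoxb9 were lower. Most genes differed between these lines, with 68.5% of all tested genes called, 34.6% higher and 33.9% lower, so that 10 called of 11 is not a result about Hox genes as such. With the study's filter, which asks for an adjusted p under 0.05 and a change of 1 or more on the log2 scale in either direction, 6 Hox genes remained, 5 higher (Hoxa2, Hoxa3, Hoxa5, Hoxa9, Hoxa10) and 1 lower (Hoxa7). That filter passed 9.19% of all tested genes, 5.49% higher and 3.69% lower. All 6 were Hoxa genes. Hoxa2, Hoxa6 and Hoxa9 passed the filter on low counts only through WT31_P5IV, while low members that fell were kept out. These counts thus follow in part from that filter. With no filter beyond 1 count, Hoxa11, Hoxb3, Hoxb5 and Hoxb6, all lower, also passed the study's filter, which made 5 higher and 5 lower. In 9 of the 11 the CPM of the groups did not overlap, which held for 54.1% of all tested genes. Without WT31 replicates 2 and 3, a choice made after seeing the data, 11 Hox genes were called, Hoxa6 being added, and the same 6 passed the study's filter.

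**Figure D1:**
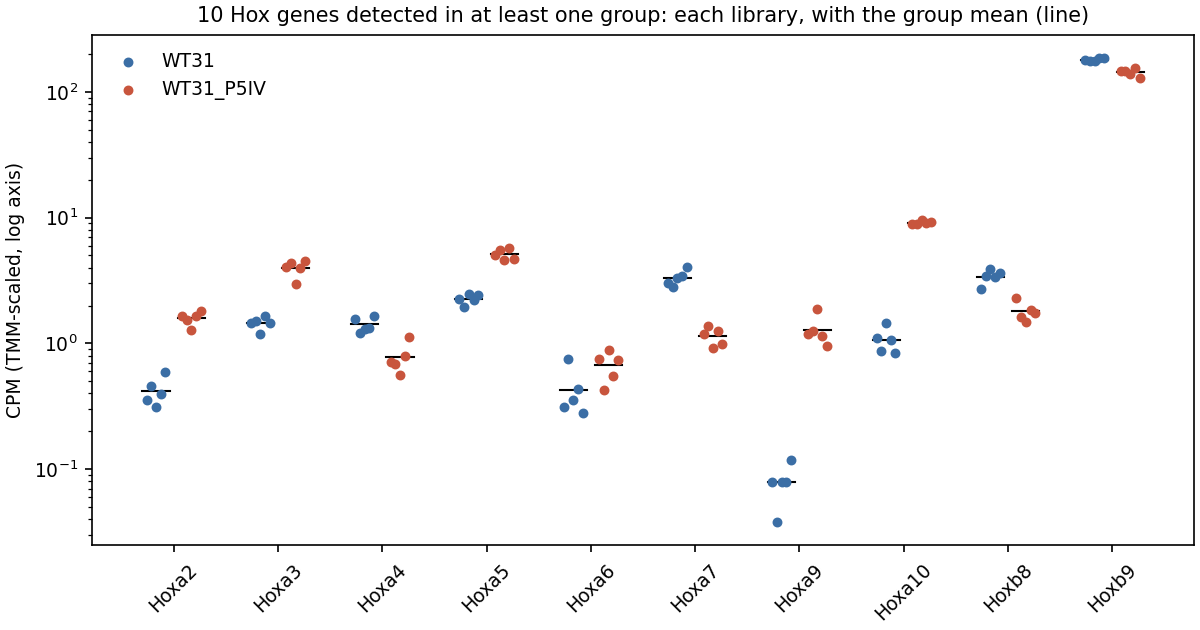
CPM of 10 Hox genes detected in at least 1 group, on a log axis, with 1 point per library (blue WT31, red WT31_P5IV, 5 each) and a line at the group mean. Hoxa9 and Hoxa10 show the widest gaps, with all WT31_P5IV libraries above all WT31 libraries, and the groups overlap for Hoxa6.

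Hoxa10 and Hoxa9 are neighbors toward the 5′ end of the cluster and both act in blood progenitors, limb and the reproductive tract. Hoxa10, at chr6:52231197-52240854 on the reverse strand, had 28, 23, 37, 27 and 21 counts in WT31 replicates 1 to 5 and 213, 206, 236, 215 and 222 in those of WT31_P5IV. Every passaged library was far above every parental one. In CPM it rose from 1.06 ± 0.246 to 9.10 ± 0.250 (SD, n = 5). This gave a log2 fold change of 3.10 ± 0.11 (standard error, SE), with an adjusted p of 1.27e-11 in edgeR's quasi-likelihood test, which is the test behind the values below. Its share of the Hoxa TPM was 7.51 to 13.7% in WT31 and 36.4 to 40.4% in WT31_P5IV. Hoxa9, at chr6:52223100-52231089, had 2, 1, 2, 2 and 3 counts in WT31 and 28, 29, 47, 27 and 23 in WT31_P5IV. The WT31 libraries were thus at or under the limit of detection, while WT31_P5IV replicate 3 was the highest of its group. The ratio of the summed counts, scaled by library size, was 16.5, with 8.71 as the lower end of its 95% counting interval (exact Clopper-Pearson), and the fitted log2 fold change was 4.04 ± 0.33 SE (adjusted p = 5.36e-08). The study lists Hoxa9 among its most increased genes, chosen on these libraries, so this is no independent evidence.

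The promoters of both genes are shown as the genes with the largest changes, beside that of Hoxb8, which fell. Each is the 250 bases before a RefSeq start on GRCm38.p6, 5′ to 3′ on the gene's strand, with capitals marking matches to 4 motifs on either strand. The first is the box near many starts that binds the general transcription machinery, spelled TATAAA. The next is a core bound by CDX factors, spelled TTTATG. The other two are a joint motif of PBX and HOX proteins, spelled TGATTNAT, and a core bound by MEIS proteins, spelled TGACAG. For Hoxa10 the second of its 2 starts is shown, at chr6:52234940-52235189, with Hoxa9 at chr6:52227371-52227620 and Hoxb8 at chr11:96281655-96281904.
Hoxa10: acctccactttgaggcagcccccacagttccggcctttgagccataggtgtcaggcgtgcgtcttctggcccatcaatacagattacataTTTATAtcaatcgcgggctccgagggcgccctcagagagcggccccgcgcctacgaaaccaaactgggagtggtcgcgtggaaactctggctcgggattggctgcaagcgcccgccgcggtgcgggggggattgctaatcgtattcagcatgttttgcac
Hoxa9: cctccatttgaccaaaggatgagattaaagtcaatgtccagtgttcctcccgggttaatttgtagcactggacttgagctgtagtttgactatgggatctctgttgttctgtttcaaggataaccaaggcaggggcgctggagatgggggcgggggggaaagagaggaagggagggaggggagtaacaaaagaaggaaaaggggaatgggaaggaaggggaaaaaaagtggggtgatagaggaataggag
Hoxb8: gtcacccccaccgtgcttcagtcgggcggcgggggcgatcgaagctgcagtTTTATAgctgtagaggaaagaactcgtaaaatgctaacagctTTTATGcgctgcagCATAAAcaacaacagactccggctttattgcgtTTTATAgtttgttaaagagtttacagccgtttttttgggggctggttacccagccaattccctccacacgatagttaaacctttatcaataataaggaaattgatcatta
The letters TATAAA were in this Hoxa10 window and in those of Hoxb8, Hoxd4 and Hoxd13, as in 12.4% of the 32851 RefSeq promoter windows. The window of the other Hoxa10 start, at chr6:52240855-52241104, held none of these motifs, and which start was in use was not examined. TTTATG, which shares all but its last letter with the reverse complement of TATAAA, was in the windows of Hoxb8 and Hoxa7 and of 3 undetected Hoxd genes, as in 10.8% of all windows. TGATTNAT, in 2.82% of all windows, was in those of Hoxa2 and Hoxd11, and TGACAG, in 15.9%, in those of Hoxa2 and Hoxa3. Neither was in the windows of Hoxa10, Hoxa9, Hoxb8 or Hoxa7. Of the 39 members 22 had a RefSeq window, and Hoxa4 and Hoxb9 were not among them. A match is a description of letters only, and the CDX genes Cdx1, Cdx2 and Cdx4 were at 0 counts in all 10 libraries.

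Hoxa7 fell, while Hoxa9 and Hoxa10 rose. This gene of the middle of the cluster, at chr6:52214491-52221854, had 77, 74, 84, 87 and 102 counts in WT31 and 28, 32, 23, 30 and 24 in WT31_P5IV. The groups did not overlap, and every passaged library was far below every parental one. Its CPM fell from 3.31 ± 0.471 to 1.15 ± 0.186 (log2 fold change −1.53 ± 0.15 SE, adjusted p = 3.10e-07). Hoxa7 made up 25.3 to 30.1% of the Hoxa TPM in WT31, where it was the highest Hoxa gene in all 5 libraries, and 3.60 to 7.72% in WT31_P5IV, where Hoxa10 was the highest in all 5. The log2 ratio of Hoxa10 to Hoxa7 TPM was −1.03 or lower across the WT31 libraries and ran from 2.24 to 3.49 after passage. Hoxa4, at chr6:52189671-52191753, also fell within the cluster. It had 40, 32, 33, 34 and 42 counts in WT31 and 17, 16, 14, 19 and 27 in WT31_P5IV, again without overlap (log2 fold change −0.87 ± 0.19 SE, adjusted p = 9.74e-04).

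**Figure D2:**
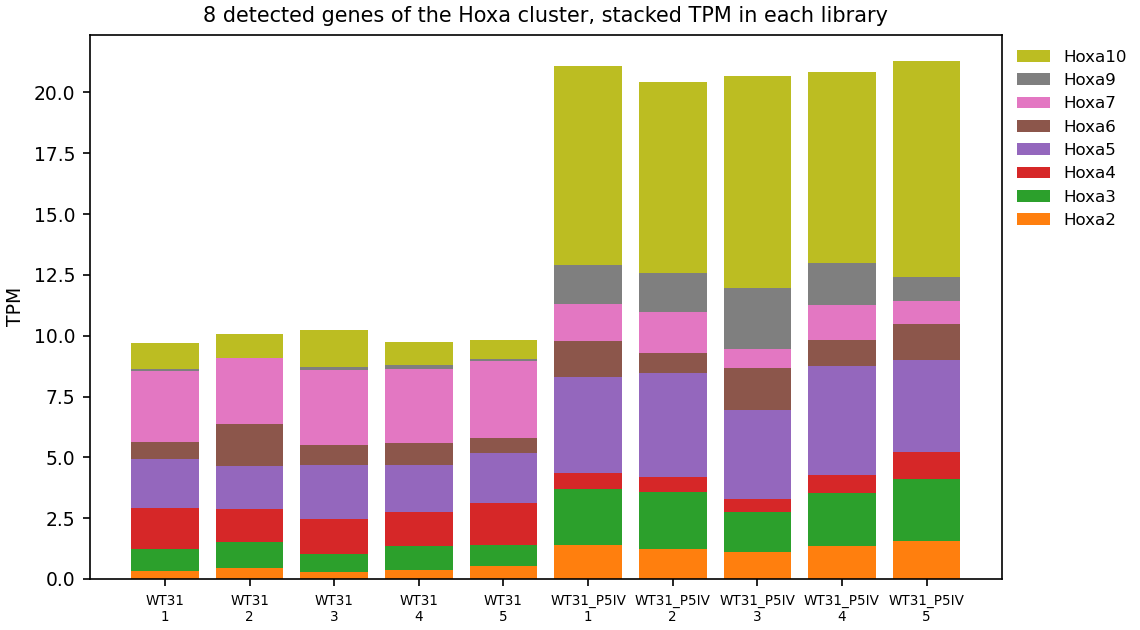
Stacked TPM of 8 detected Hoxa genes in each of the 10 libraries, on a linear axis from 0. The Hoxa7 band (pink) is the widest in the WT31 bars and the Hoxa10 band (olive) in the WT31_P5IV bars, which are also the taller ones.

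Hoxa5, Hoxa3 and Hoxa2 rose. Hoxa5, best known from lung and gut patterning, lies at chr6:52201754-52204587 between Hoxa4 and Hoxa6. It had 58, 51, 63, 56 and 61 counts in WT31 and 120, 130, 114, 137 and 114 in WT31_P5IV, with no overlap (CPM 2.26 ± 0.213 and 5.14 ± 0.522, log2 fold change 1.19 ± 0.10 SE, adjusted p = 1.24e-07). Hoxa3, a gene needed for thymus and parathyroid development, had 37, 40, 30, 42 and 37 counts in WT31 and 97, 101, 74, 94 and 109 in WT31_P5IV. The lowest passaged library, replicate 3, was still above all parental ones (log2 fold change 1.45 ± 0.14 SE, adjusted p = 2.94e-07). Hoxa2, which patterns the neural crest of the second branchial arch, rose from 9, 12, 8, 10 and 15 counts to 39, 36, 32, 39 and 44 (log2 fold change 1.91 ± 0.19 SE, adjusted p = 5.71e-07). Its WT31 counts are low, and it passed the filter on low counts only through WT31_P5IV, but the groups lay far apart.

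For Hoxa6 the groups overlapped. Hoxa6 had 8, 20, 9, 11 and 7 counts in WT31 and 18, 10, 22, 13 and 18 in WT31_P5IV. In CPM, WT31 replicates 2 and 4 and WT31_P5IV replicates 2, 4 and 5 lay within the range of the other group, and the gene was not called (log2 fold change 0.65 ± 0.30 SE, adjusted p = 0.0637). Leaving out WT31 replicate 2 gave it a change of 0.96 with an adjusted p of 0.00745, and leaving out WT31_P5IV replicate 2 gave 0.77 with an adjusted p of 0.0360. Over all libraries left out in turn, the adjusted p ranged from 0.00745 to 0.162.

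**Figure D3:**
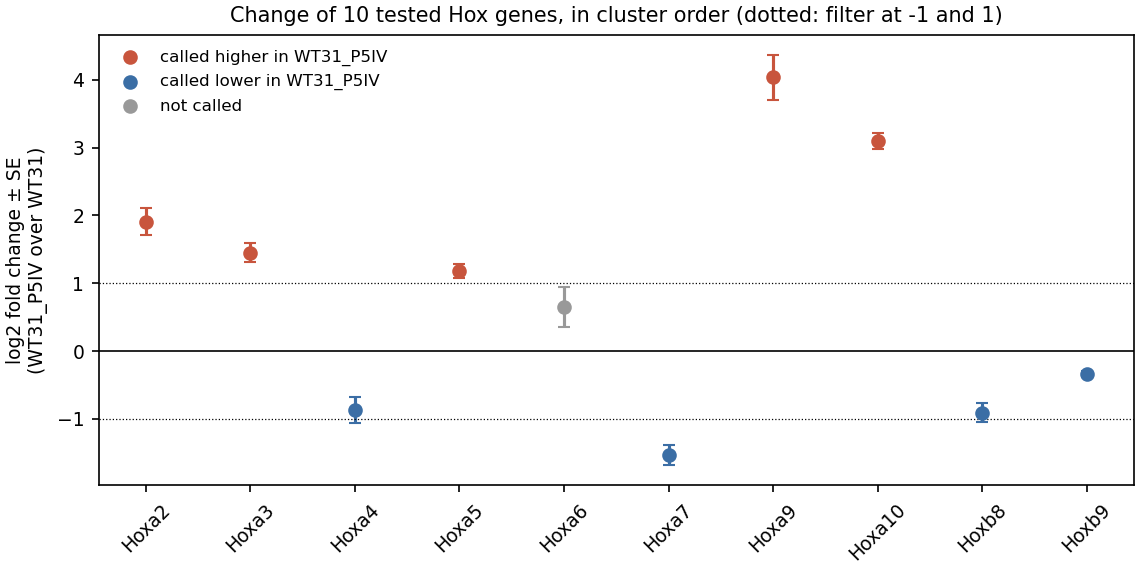
Log2 fold change with its standard error for 10 tested Hox genes in cluster order, with dotted lines at −1 and 1 and colors for genes called higher (red), called lower (blue) and not called (grey) in WT31_P5IV. Along the Hoxa cluster, genes called higher stand beside Hoxa4 and Hoxa7, which were called lower.

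Direction did not follow position along the Hoxa cluster. Toward the posterior end the changes ran higher for Hoxa2 and Hoxa3, lower for Hoxa4, higher for Hoxa5, not called for Hoxa6, lower for Hoxa7 and higher for Hoxa9 and Hoxa10. Tested genes of chromosome 6 had a median log2 fold change of 0.28 (677 genes), above the 0.01 of all tested genes, and its part in the Hoxa values was not tested. Skap2, the 1 tested coding gene within 200 kb of the Hoxa cluster, had a log2 fold change of 0.15. Of the 16 coding genes within 200 kb of any cluster, 9 were tested, 2 were called higher and 4 lower, and none passed the study's filter, with log2 fold changes from −0.21 to 0.57. With 68.5% of all tested genes called and 9.19% past that filter, these counts are no result about the neighbors. The Hoxa11 and Hoxa13 genes at the posterior end were not tested.

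In the Hoxb cluster both tested genes fell. Hoxb9, at chr11:96271457-96276595 on the forward strand, had 4599, 4623, 4505, 4737 and 4678 counts in WT31 and 3511, 3405, 3467, 3651 and 3124 in WT31_P5IV. Replicates were close and the groups did not overlap, so this change had the smallest standard error of the 11, with 181 ± 5.00 and 143 ± 9.41 CPM (log2 fold change −0.34 ± 0.04 SE, adjusted p = 9.84e-06). It was also the smallest change of the 11 and far from the study's filter. On the TPM scale, log2 fold changes of all tested genes had a median shift of −0.17 from those of the edgeR fit. Relative to that shift Hoxb9 changed by −0.30 in limma on log2(TPM + 0.1). Hoxb8, at chr11:96281905-96285315 and known for its role in spinal cord and myeloid progenitors, had 69, 90, 100, 85 and 91 counts in WT31 and 55, 38, 37, 44 and 42 in WT31_P5IV. WT31 replicate 1 and WT31_P5IV replicate 1 came closest to each other without touching (log2 fold change −0.91 ± 0.14 SE, adjusted p = 3.82e-05). Tested genes of chromosome 11 had a median log2 fold change of 0.000744.

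Of the 28 members kept out by the filter on low counts, 4 had an adjusted p under 0.05 in a fit of all 31234 genes with at least 1 count, in which 32.5% of genes were called. Hoxa11, a limb and kidney gene, had 2, 3, 5, 8 and 8 counts in WT31 and 0 in all WT31_P5IV libraries. The gene was called lower there (adjusted p = 2.25e-05 in edgeR without the filter, and 1.52e-06 to 1.03e-04 with each library left out). Hoxb6, a thoracic-level gene next to Hoxb7, had 7, 3, 8, 6 and 5 counts in WT31 and 1, 0, 0, 0 and 0 in WT31_P5IV. The ratio of WT31_P5IV to WT31 was 0.0369 with a 95% counting interval of 9.02e-04 to 0.222 (adjusted p = 3.23e-05 in edgeR without the filter). Hoxb5 had 1, 1, 8, 2 and 3 counts in WT31 and 2, 0, 0, 0 and 0 in WT31_P5IV (adjusted p = 0.0277), and replicate 3 gave 8 of the 15 WT31 counts. Its adjusted p was 0.215 without that library and 0.0662 to 0.0691 without any 1 of WT31_P5IV replicates 2 to 5. Hoxb3 had 0, 2, 3, 2 and 0 counts in WT31 and 0 in WT31_P5IV (adjusted p = 0.0276), which became 0.0502 to 0.0816 without WT31 replicate 3 or 4 or any WT31_P5IV library. The other 24 were not called in that fit or had no counts. Hoxb1 had 0 to 5 counts in WT31 and 2 to 5 in WT31_P5IV (adjusted p = 0.715), Hoxb7 0 to 3 and 0 to 2, and Hoxb2, Hoxb4 and Hoxa13 at most 2 in any library.

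Noncoding genes of the clusters were matched by symbol, 17 of 19 listed, and 4 were tested. All 4 were called higher, with a median log2 fold change of 1.09 as compared to 0.01 over all tested genes, of which 68.5% were called and 34.6% called higher. Other tested noncoding genes inside the clusters, looked up after the values were seen, were Gm15050, which was not called (log2 fold change 0.39, adjusted p = 0.215), Gm27477 (0.70, adjusted p = 0.0136) and the pseudogene Gm11539 (1.68, adjusted p = 0.00139), both called higher, and Gm53, described with Mir196a-1. Hotairm1, an antisense transcript of the anterior part of the Hoxa cluster, rose from 22 to 44 counts per library to 40 to 60 (log2 fold change 0.76 ± 0.19 SE, adjusted p = 0.00206). Hoxaas3, which runs antisense from Hoxa3 to Hoxa7, rose from 7 to 13 counts to 12 to 19 (log2 fold change 0.71, adjusted p = 0.0159), and Hoxaas2 from 1 to 4 counts to 10 to 17 (log2 fold change 2.80, adjusted p = 1.16e-05). Hoxa11os, antisense to Hoxa11, had 6 to 15 counts in WT31 and 0 to 2 in WT31_P5IV and was kept out of the test by the filter on low counts. Hoxaas2 and Hoxaas3 passed that filter only through WT31_P5IV, where they were higher. The count and median of the 4 thus follow in part from the filter. Gm15050, Gm27477 and Gm11539 also passed it only through WT31_P5IV. Hotair, Hottip and Haglr were at 0 in all libraries.

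The source does not state that counting used the strand, so a gene and its antisense partner may share reads. Opposite-strand words were 23.6% of Hoxa3 (shared with Hoxaas2, Hoxaas3 and Gm29430), 14.4% of Hoxa4 (Gm29430), 19.6% of Hoxa7 (mainly Hoxaas3) and 33.9% of Hoxa11 (Hoxa11os). Among the low Hoxb genes they were 52.6% of Hoxb3 and 26.5% of Hoxb2 (both mainly or wholly Hoxb3os) and 2.51% of Hoxb5 (Hoxb5os). Hoxa2, Hoxa5, Hoxa6, Hoxa9, Hoxa10 and Hoxb8 shared 0% in this way, and Hoxb9 0.313%. Hoxa7 fell while Hoxaas3 rose, and reads of these 2 genes over their shared stretch cannot be told apart.

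**Figure D4:**
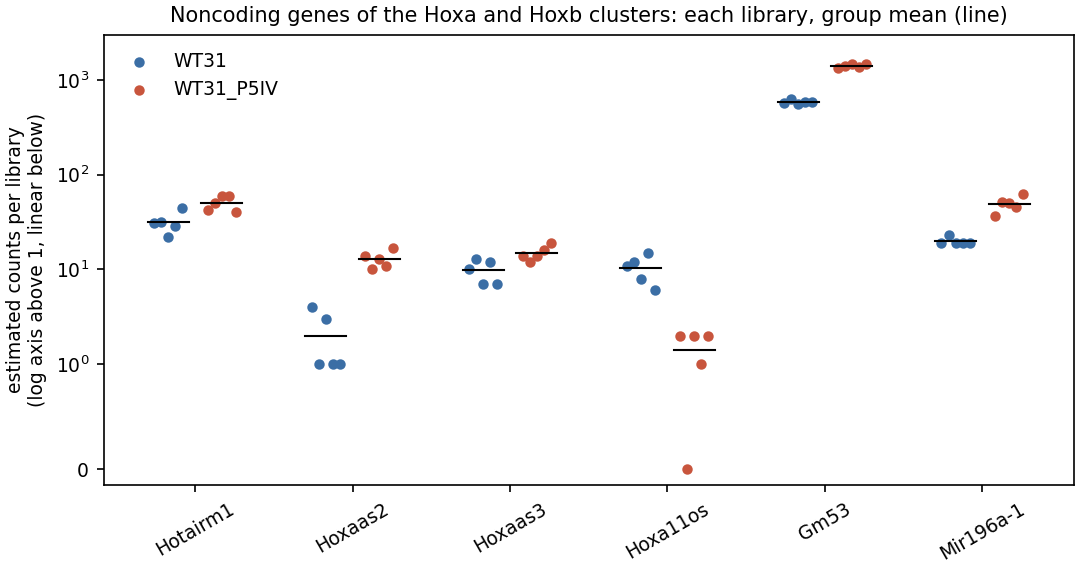
Estimated counts of 6 noncoding genes of the Hoxa and Hoxb clusters in each library (blue WT31, red WT31_P5IV, 5 each, line at the group mean), on an axis that is logarithmic above 1 count and linear below. Gm53 and Mir196a-1 lie higher in all WT31_P5IV libraries, and Hoxa11os lies lower.

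Beside Hoxb9, 2 noncoding genes moved against it. Mir196a-1, the hairpin gene of a miRNA that is embedded in the Hox clusters, lies at chr11:96265164-96265265, 6.19 kb before Hoxb9. It had 19, 23, 19, 19 and 19 counts in WT31 and 37, 52, 50, 46 and 63 in WT31_P5IV, without overlap (log2 fold change 1.42 ± 0.16 SE, adjusted p = 2.43e-06). These are RNA sequencing fragments assigned to the hairpin, so they measure its precursor or a longer transcript, and the mature miRNA was not measured. Gm53, a long noncoding RNA chosen after its values were seen, lies at chr11:96251105-96264868 and ends 296 bases before the hairpin. It had 575, 628, 560, 592 and 579 counts in WT31 and 1341, 1415, 1473, 1372 and 1462 in WT31_P5IV (log2 fold change 1.36 ± 0.04 SE, adjusted p = 7.55e-13). The 2 genes thus changed by like amounts, while Hoxb9 and Hoxb8 on the same strand fell. Mir196a-2 in the Hoxc cluster and the Mir10a and Mir10b genes were at 0 in all libraries. Mir196b, within the annotated Hoxa9 gene, was also at 0, but it shares 31-base words with Hoxa9 in the same direction. Reads of Mir196b and Hoxa9 over that stretch cannot be told apart, so that 0 is no measure of the hairpin.

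The miR-196 family is known to target Hox transcripts, so its sequences are shown with the best paired sites in the 3′ UTRs of Hoxb8 and Hoxa7, which fell, and of Hoxa9, which rose. The mature miRNAs are from RefSeq (GRCm38.p6), with the seed, bases 2 to 8, in capitals.
mmu-miR-196a-5p: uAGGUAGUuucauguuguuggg
mmu-miR-196b-5p: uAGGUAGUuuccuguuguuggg
Hoxb8 site: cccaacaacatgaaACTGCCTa
Hoxa7 site: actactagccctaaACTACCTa
Hoxa9 site: caaaaggaaagaaaACTACCTt
The miRNAs share their seed and 21 of 22 bases. In the sites, from GENCODE M21 and written 5′ to 3′, capitals mark the 7 bases that face the seed. The Hoxb8 site, at chr11:96284888-96284909, pairs with miR-196a-5p at 21 of 22 bases with a G:U pair at the other, and Hoxb8 was the 1 gene of 20555 with a 3′ UTR of at least 50 bases that reached 21 pairs. The Hoxa7 site, at chr6:52215210-52215231, pairs at 14 bases, as do the Hoxa9 site at chr6:52223900-52223921 and the best site of Hoxa4, and 20.5% of those 3′ UTRs reached or passed that number. A full match to the seed, the letters ACTACCT, occurred 4 times in the 3′ UTR of Hoxa7, and 5.04% of 3′ UTRs within 25% of its length (1219 bases) held any. Among the tested Hox genes, Hoxa4, Hoxa5, Hoxa7 and Hoxa9 held a full seed match and Hoxa2, Hoxa3, Hoxa6, Hoxa10, Hoxb8 and Hoxb9 did not. Of those named with a match, Hoxa4 and Hoxa7 fell and Hoxa5 and Hoxa9 rose, so the presence of a match did not go with 1 direction.

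Genes that work with or upstream of Hox genes were described from lists. Of 11 TALE cofactors all were tested, 0 were called higher and 4 lower, with a median log2 fold change of −0.11. Among the 4 were Tgif1, a repressor of the class (−0.56, standard error 0.06), and the Hox partners Pbx3 (−0.37, standard error 0.05) and Pbx2 (−0.20, standard error 0.05). Meis1 had a log2 fold change of 0.00074 and Meis2 of 0.07, and neither was called. All log2 fold changes of list genes in this and the next 2 paragraphs are from the edgeR fit, and those given as risen, fallen or changed had adjusted p-values of 0.0133 or lower.

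Of 22 Polycomb genes, 8 were called higher and 7 lower, with a median of 0.02. Cbx7, a reader of the repressive H3K27 mark, rose by 1.13 (standard error 0.11) and Phf1 by 0.76 (standard error 0.06), while Scmh1 fell by 0.57 (standard error 0.04) and Rnf2, the ubiquitin ligase of PRC1, fell by 0.63 (standard error 0.05). Scml2, outside the naming rule and chosen after its values were seen, was at 1 to 3 counts in the parental libraries and 30 to 34 in the passaged ones. It passed the filter on low counts only through the passaged libraries. Of 13 trithorax and MLL genes, 3 were called higher and 5 lower (median −0.07). Kmt2a, the MLL methyltransferase that maintains Hox expression, rose by 0.55 (standard error 0.12), Kmt2b by 0.32 (standard error 0.05), and Psip1 and Ash2l changed by −0.30 and −0.27. Of 20 axial inducers, 10 were tested, 1 was called higher and 5 lower (median −0.13). Aldh1a1, an enzyme of retinoic acid synthesis, fell from 96 to 108 counts to 28 to 35 (−1.58, standard error 0.10), Cyp26b1, which degrades retinoic acid, rose by 1.20 (standard error 0.21), and Rarb changed by −0.57.

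Of 36 other homeobox genes of the ANTP class, 14 were at 0 in all libraries and 4 were tested, of which Dlx1 was called higher (log2 fold change 0.33 ± 0.09 SE, adjusted p = 0.00562). Evx1 and Evx2, which flank the posterior ends of the Hoxa and Hoxd clusters, had at most 6 and 1 counts in a library. Of 15 genes with a reported link to a Hox protein, 12 were tested, 5 were called higher and 3 lower (median −0.01). Fgf2, a growth factor of melanocytes, rose from 8 to 18 counts to 27 to 38 (1.32, standard error 0.21), Efna1 by 0.91 (standard error 0.30), the ephrin receptor Epha2 by 0.76 (standard error 0.07) and Bmp2 by 0.72 (standard error 0.07). The largest change in this list was a fall of Bmp4, named after its values were seen, from 18 to 25 counts to 0 to 2 (adjusted p = 1.31e-07), and Plaur fell by 0.66 (standard error 0.20). Bmp4 passed the filter on low counts only through WT31, where it was high. The shares called in these lists stood near or below the 68.5% of all tested genes, and no link between them and the Hox changes was tested.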

How the data were processed

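RNA of cultured WT31 and WT31_P5IV melanoma cells was sequenced in 5 libraries each. The authors trimmed reads with Trim Galore, quantified them with kallisto on GRCm38.p6 transcripts (version 0.4.6 in the submitters' notes) and deposited 2 values per gene, estimated counts and TPM (transcript abundance corrected for length). The strand setting is not given in the sources used here. Names and positions are from GENCODE M21, which holds 55144 of the 55385 identifiers.

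After rounding to whole numbers, the estimated counts were tested in edgeR 4.0.16 (R 4.3.3) with filterByExpr, TMM scaling, glmQLFit and glmQLFTest and p-values adjusted by Benjamini-Hochberg over the 13620 genes tested. Standard errors came from the log2 fold change and the F statistic. In simulated data with 200 changed genes among the 13620, edgeR found 95% of 2-fold and 100% of 4-fold changes with 12 false calls. The simulation gave all genes the same spread and changed far fewer genes than were called here, so these rates may not hold for the real libraries. Alternatives used DESeq2 1.42.0 and limma 3.58.1.

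The members and gene lists were chosen with earlier results of these data known. Every member was counted, and in each list the called genes with the largest changes that were detected in both groups were named, except that values and sequences of a few genes are not reported here. Sequence steps ran in Python 3.11.15 (numpy 2.4.6, pandas 2.3.3).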

Additional observations from a re-analysis of the deposited data

Results flagged for a closer look

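Among 30 group values of Hox genes and noncoding genes of the clusters, 1 stood apart within its group of 5: WT31 replicate 2 had 0.871 CPM of Mir196a-1, as compared to 0.745 to 0.752 CPM in the other WT31 libraries. Chance alone marks about 1 in 20 groups in this way. That library remained below every WT31_P5IV library.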

How the results depend on the processing

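All 10 calls among the Hox genes kept their direction under every alternative that tested them, and Hoxa2 and Hoxa9 could not be tested at 10 counts in every library. Hox genes called numbered 10 to 11 with each library left out, and genes called overall 8965 to 9444. With the replicate block 10 Hox genes and 9380 genes in all were called; same-numbered libraries correlated from −0.096 to 0.178 in their deviations, so the numbers name libraries and do not pair them. Hoxa6 was called higher by limma voom with TMM (adjusted p = 0.0452), without replicate 2 of either group and without both WT31 libraries 2 and 3 (added after seeing the data, adjusted p = 0.0159). Past the study's filter, 6 Hox genes stood in the main test, 6 to 7 with a library left out (Hoxb8 entered without WT31_P5IV replicate 1, Hoxa4 without WT31_P5IV replicate 5), 10 with no filter beyond 1 count, where Hoxa11, Hoxb3, Hoxb5 and Hoxb6 entered, 4 at 10 counts in every library and 2, Hoxa9 and Hoxa10, in limma on log2(TPM + 1), whose pseudocount exceeds several of these levels. On log2(TPM + 0.1) Hoxa5 (0.97) left and Hoxb8 (−1.29) entered, or 1.14 and −1.13 relative to the median shift of all tested genes from the edgeR fit. With over 10 counts as the limit, 8 Hox genes were detected in WT31 and 10 in WT31_P5IV. With a library left out, 10 to 11 were detected in WT31 and 11 in WT31_P5IV. Members under 3 counts are limited by depth.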
